A study of Rattus norvegicus with 18 samples.

Results

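Endothelial cells of rat liver and lung were compared through 5 genes whose products sit at endothelial cell contacts: Cdh5, Jup, Jam2, Tjp1 and Gja4. They were taken by their gene symbol in the array's annotation, and all 5 were present, each with 1 probe set, among the 11018 genes tested. The RNA came from lung microvascular endothelial cells analysed straight after isolation (LMEC_0h, 5 arrays), liver sinusoidal endothelial cells analysed straight after isolation (LSEC_0h, 5 arrays), and liver sinusoidal endothelial cells kept on collagen-coated plastic for 2 h (LSEC_2h, 4 arrays) or 42 h (LSEC_42h, 4 arrays). Cells of both organs had been purified by digestion, a density gradient and magnetic sorting, and no treatment other than plating was named. Strain, sex and age of the rats are not given in the sources used. The labels do not say that the arrays came from separate animals, so every p-value below measures the spread between arrays, which may be technical.

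Endothelial cells hold together through junctions of several kinds. In adherens junctions the endothelial cadherin binds its like on the next cell and is tied to the actin skeleton by catenins, in tight junctions membrane proteins such as the junctional adhesion molecules seal the cleft on a cytoplasmic scaffold, and in gap junctions connexins form channels between neighbours. Sinusoidal endothelium of the liver is fenestrated, lacks an organised basement membrane and is known for changing its specialised features in culture, whereas lung capillaries are lined by a continuous, tighter endothelium.

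All values are log2 expression as deposited. A level can be compared between arrays for 1 gene but not between genes, because probe sets differ in brightness. Calls were made at an adjusted p under 0.05 in a limma model of all 18 arrays and all 11018 genes. The median of all gene probe sets was 7.15. In LMEC_0h and LSEC_0h the group means of 24 poly-A control probe sets lay between 5.41 and 6.26. For their low values there, these are called the absent controls below and the range the absent range. No label says which control RNA was added, and the range leaves out the cultured groups. The lowest value of any of the 5 genes was 6.59, for Gja4 in a 42 h array.

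Several array-wide measures moved with the groups. Poly-A control probe sets, 24 in number, averaged 7.62 to 8.37 in LSEC_2h and 7.68 to 7.86 in LSEC_42h, against 5.66 to 5.68 in LMEC_0h and 5.72 to 5.74 in LSEC_0h, so culture and the handling of the RNA cannot be told apart. The organ comparison and that of 42 h with 2 h lie within 1 of these kinds. The 3′ signal of the Actb controls was set against their 5′ signal, a measure in which RNA quality and handling of the RNA cannot be told apart. The 3′ signal was higher by log2 differences of 0.97 to 1.34 in LMEC_0h, 0.91 to 1.28 in LSEC_0h, 1.63 to 1.69 in LSEC_2h and 1.81 to 1.89 in LSEC_42h. This measure thus also separated LSEC_42h and LSEC_2h, and its part in the differences seen in culture was not tested. The 75th percentile was 8.0 to 8.08 in LSEC_2h and 8.23 to 8.26 in LSEC_0h, and among the 6803 genes left when dim ones were dropped the median difference of LSEC_2h from LSEC_0h was -0.22. As to the endothelial label, 9 general endothelial markers averaged 9.26 to 10.7 over the 18 arrays. Markers of other cells were also present. Lung epithelial markers averaged 9.48 to 11.04 in LMEC_0h and 6.31 to 6.39 in LSEC_0h. All 11 were called higher in LMEC_0h, against 19.8% of all genes. Hepatocyte markers averaged 8.29 to 9.7 in LSEC_0h. Across the 4 LSEC_2h arrays the hepatocyte mean ran between 6.97 and 10.26, the top value in array 6. In LSEC_42h the hepatocyte mean was 6.32 to 6.48. Relative to LSEC_0h, 3 of 12 hepatocyte markers were called lower in LSEC_2h, against 32.7% of all genes. In LSEC_42h 12 of 12 were, against 20.8% of all genes. T, NK and B cell markers averaged 7.49 to 8.01 in LSEC_2h, against 6.49 to 6.69 in LSEC_0h. Of the 11, 6 were called higher and 1 lower in LSEC_2h, against 41.4% and 32.7% of all genes. The rise lay mainly in Gzma, Prf1, Klrd1, Nkg7 and Cd7, with Gzma at 10.55 in LSEC_2h and 6.59 in LSEC_0h. Cd3d averaged 6.5 in LSEC_2h and 6.22 in LSEC_0h, Cd79b 6.39 in both, and Lck was lower in LSEC_2h, 8.46 against 9.23. Macrophage markers averaged 8.22 to 10.64 in LSEC_0h, 7.1 to 7.54 in LSEC_2h and 6.56 to 6.79 in LSEC_42h. Compared with LSEC_0h, 5 of 7 were called lower and 1 higher in LSEC_2h, against 32.7% and 41.4% of all genes. At 42 h 6 of 7 were called lower than in LSEC_0h, against 20.8% of all genes. Stellate and mesenchymal markers averaged 8.22 to 9.34 in LMEC_0h, 6.38 to 6.86 in LSEC_0h and 6.98 to 8.03 in LSEC_2h. Of these, 10 of 11 were called higher and 1 lower in LMEC_0h than in LSEC_0h, against 19.8% and 27.7% of all genes. The part of these cells' RNA in the differences of the 5 genes was not tested.

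**Figure D1:**
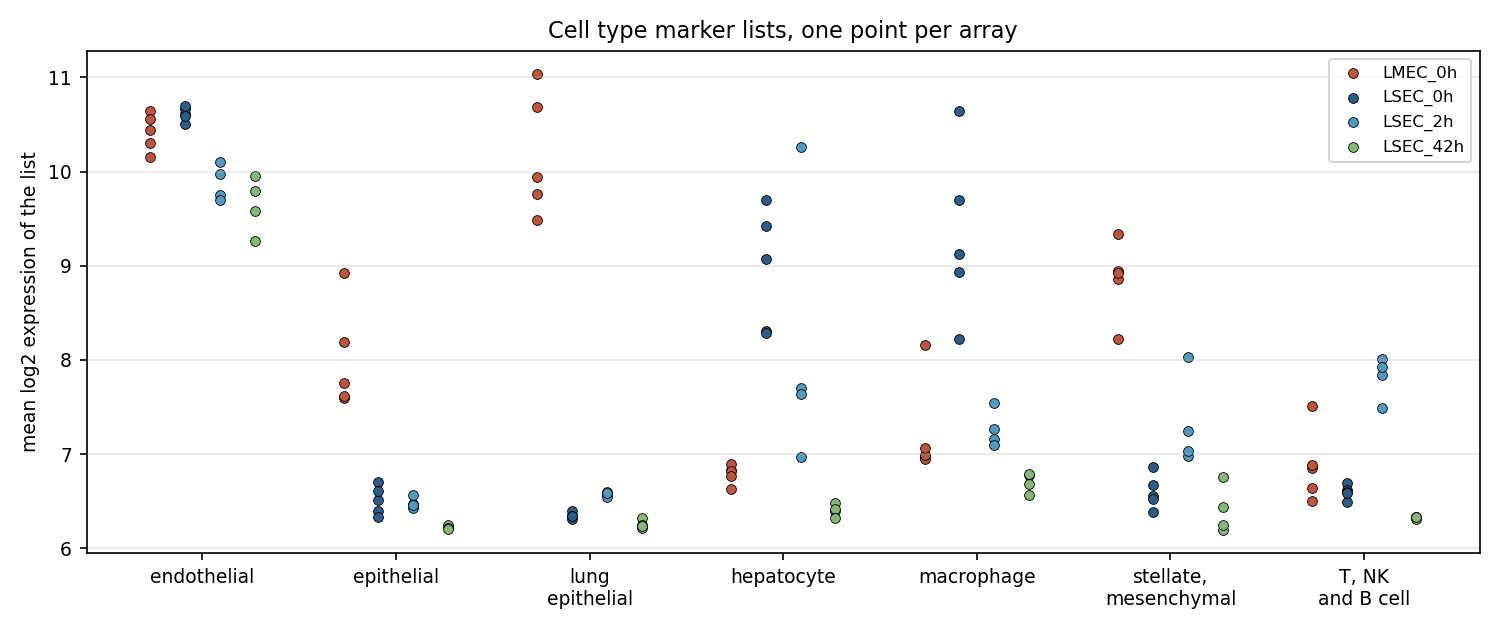
Mean log2 expression of 7 marker lists in each of the 18 arrays, by group, 1 point per array. Lung epithelial markers stand between 9.48 and 11.04 in LMEC_0h and at or below 6.6 in every liver array, while hepatocyte markers reach 10.26 in a single LSEC_2h array.

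The organ comparison, LMEC_0h against LSEC_0h, divided the 5 genes. Gja4 and Jup were higher and Jam2 and Tjp1 lower in LMEC_0h, while Cdh5 was not called. Across all genes 47.5% were called in this comparison, 19.8% higher and 27.7% lower in LMEC_0h. For 4 of the 5 genes the groups did not overlap, as held for 38.7% of all genes.

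Within 2 h of culture all 5 genes fell below LSEC_0h, by 0.74 to 1.70 on the log2 scale. Of all genes, 74.0% were called in that comparison, 41.4% higher and 32.7% lower, and among the 6803 brighter genes 3262 were lower. The groups did not overlap for 5 of the 5 genes, against 66.3% of all genes. After 42 h all 5 were again called lower than in LSEC_0h, where 50.6% of all genes were called, 29.7% higher and 20.8% lower. The sizes had spread, with log2 differences between -3.07 and -0.34, and the groups did not overlap for 3 of the 5, against 48.7% of all genes. Between the cultures, Cdh5 and Tjp1 were higher and Jam2 and Gja4 lower at 42 h than at 2 h, and Jup was not called, against 72.1% of all genes called, 33.1% higher and 38.9% lower. The cultures did not overlap for 4 of the 5, against 64.4% of all genes. In bulk samples like these, fewer cells of a type and less RNA per cell cannot be told apart.

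**Figure D2:**
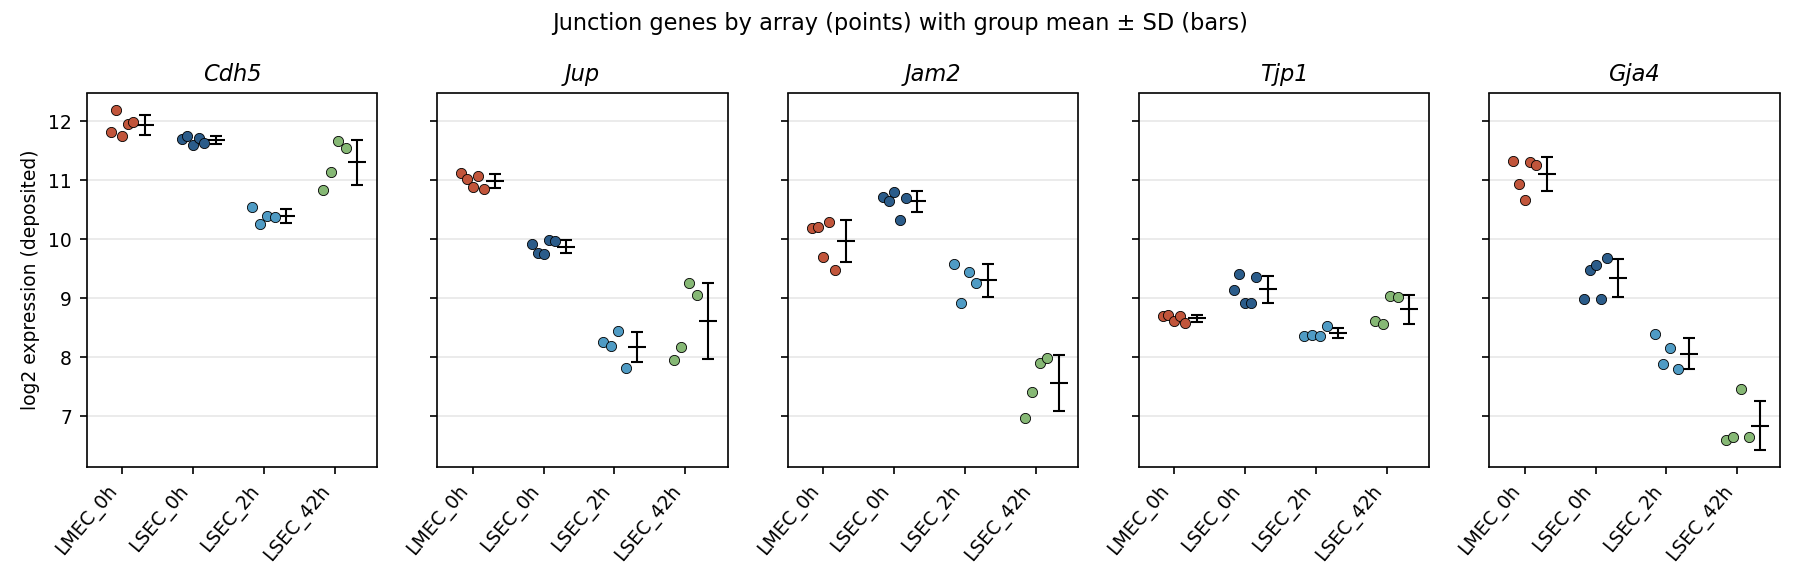
Log2 expression of Cdh5, Jup, Jam2, Tjp1 and Gja4 in each array, by group in the order LMEC_0h, LSEC_0h, LSEC_2h and LSEC_42h, with the group mean and SD. Gja4 descends across the 4 groups without overlap, and Cdh5 is lowest at 2 h and higher again at 42 h.

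Cdh5 encodes the endothelial cadherin of adherens junctions. In LMEC_0h its probe set read 11.82, 12.18, 11.74, 11.95 and 11.98 in arrays 18 to 22. In LSEC_0h it read 11.7, 11.75, 11.59, 11.71 and 11.63 in arrays 13 to 17. The highest liver array stood just above the lowest lung array, so the groups overlapped narrowly, and the difference of 0.26 (95% interval -0.01 to 0.53) was not called (limma adjusted p = 0.109). A fit on those 2 groups alone called the same 0.26 with a limma adjusted p of 0.024, as did the fit without LSEC_42h array 1 (limma adjusted p = 0.0469), and over the 27 alternatives that test for any change the adjusted p ran between 0.024 and 0.401.

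At 2 h Cdh5 was at 10.54, 10.25, 10.39 and 10.38 in arrays 4 to 7, and at 42 h it was at 10.84, 11.14, 11.66 and 11.54 in arrays 1, 2, 3 and 12. Every 2 h array lay below every other array of the series. Relative to LSEC_0h, Cdh5 fell 2.44-fold in LSEC_2h, with means of 10.39 ± 0.12 (SD, n = 4) in LSEC_2h and 11.68 ± 0.07 (SD, n = 5) in LSEC_0h and a limma adjusted p of 2.68e-07. It was 1.87-fold higher in LSEC_42h than in LSEC_2h (limma adjusted p = 2.75e-05). The remaining difference of LSEC_42h from LSEC_0h, -0.38, was called with a limma adjusted p of 0.0276, but 42 h array 3 overlapped LSEC_0h. That call was lost without LSEC_42h array 1, where the difference was -0.23, without LSEC_42h array 2 (-0.33) and without LSEC_0h array 14 (-0.36). It was also lost in the fit of 2 groups (adjusted p = 0.058), after quantile normalization (-0.34) and with array weights (-0.22), and its adjusted p over the 27 alternatives ran between 0.005 and 0.131. Against LMEC_0h, Cdh5 was 2.91-fold lower in LSEC_2h and 1.56-fold lower in LSEC_42h, with limma adjusted p of 3.08e-08 and 0.000594. In the comparison of LSEC_2h with LMEC_0h 4 of the 5 junction genes were lower and 4 did not overlap, while 73.7% of all genes were called, 43.0% higher and 30.6% lower, and 60.4% did not overlap. In that of LSEC_42h with LMEC_0h 4 of the 5 were likewise lower and 4 did not overlap, while 61.8% of all genes were called, 39.9% higher and 22% lower, and 51.0% did not overlap.

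Jup encodes plakoglobin, a catenin that links cadherins to the cytoskeleton and is also found in desmosomes. Its probe set read 11.12, 11.01, 10.89, 11.07 and 10.85 in LMEC_0h arrays 18 to 22, against 9.91, 9.76, 9.75, 9.98 and 9.97 in LSEC_0h arrays 13 to 17. Every lung array was higher than every liver array, and the spread within each organ was narrow. Jup had a mean of 10.99 ± 0.12 in LMEC_0h (SD, n = 5), against 9.87 ± 0.11 in LSEC_0h (SD, n = 5), which made it 2.16-fold higher in LMEC_0h (limma adjusted p = 0.000143). Epithelial cells also carry plakoglobin, and 9 of 11 epithelial markers were called higher in LMEC_0h, against 19.8% of all genes. The list means were 7.6 to 8.92 in LMEC_0h and 6.33 to 6.7 in LSEC_0h. Epcam, which marks epithelium, averaged 8.8 in LMEC_0h and, at 5.94 in LSEC_0h, lay within the range of the absent controls. The lung array with the highest epithelial mean, array 20, had a Jup value of 10.89, and the other lung arrays had epithelial means of 7.6 to 8.19. Cdh1, also on the epithelial list, differed less between the organs than Epcam did. Its lung arrays averaged 8.46 (range 7.8 to 9.94), and its fresh liver arrays, averaging 8.02, overlapped them with a range of 6.84 to 9.53. Cultured cells had lower Cdh1 means, 6.29 for LSEC_2h and 5.83 for LSEC_42h. The part of epithelial RNA in the organ difference of Jup was not tested. Nor was the part of cells with Cdh1 in the differences of Jup in culture.

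In culture Jup was at 8.25, 8.18, 8.44 and 7.82 in LSEC_2h arrays 4 to 7 and at 7.95, 8.17, 9.26 and 9.06 in LSEC_42h arrays 1, 2, 3 and 12. Both cultured groups lay wholly below LSEC_0h, and 42 h arrays 3 and 12 were higher than arrays 1 and 2. Jup fell 3.25-fold in LSEC_2h relative to LSEC_0h (limma adjusted p = 1.43e-06), the greatest of the 5 falls at 2 h, and was 2.4-fold lower in LSEC_42h than in LSEC_0h (limma adjusted p = 6.92e-05). Between LSEC_42h and LSEC_2h the difference was 0.44 (95% interval -0.03 to 0.90) and was not called (limma adjusted p = 0.0827). It passed without LSEC_42h array 1 (0.66), without LSEC_42h array 2 (0.58) and with array weights (0.76), and its adjusted p over the 27 alternatives ran between 0.00243 and 0.433. The same 2 arrays, 1 and 2, were the lower pair at 42 h for Cdh5, Jam2 and Tjp1, and their endothelial marker means were 9.26 and 9.58, against 9.95 and 9.79 in arrays 3 and 12. The part of this split in the results was not tested. Compared with LMEC_0h, Jup was 7.02-fold lower in LSEC_2h and 5.19-fold lower in LSEC_42h (limma adjusted p = 3.79e-09 and 3.54e-08).

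Jam2 encodes a junctional adhesion molecule of the immunoglobulin superfamily, found at endothelial contacts, where it binds Jam3 on the opposing cell. In LMEC_0h it was at 10.18, 10.2, 9.69, 10.29 and 9.47 in arrays 18 to 22, against 10.71, 10.65, 10.8, 10.33 and 10.7 in LSEC_0h arrays 13 to 17. The organs did not overlap, but the highest lung array and the lowest liver array were nearly level, and lung arrays 20 and 22 stood below the other lung arrays. Jam2 was 1.59-fold lower in LMEC_0h, with means of 9.97 ± 0.36 in LMEC_0h against 10.64 ± 0.18 in LSEC_0h (SD, n = 5 each) and a limma adjusted p of 0.00903. Without LMEC_0h array 20, LSEC_2h array 6 and LSEC_0h array 15, which hold high levels of other cells' markers, the difference was -0.56 and was no longer called (limma adjusted p = 0.0596, in a range of 0.00401 to 0.0596 over the 27 alternatives).

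Jam2 had the largest fall of the 5 genes in LSEC_42h relative to LSEC_0h. It was at 9.57, 8.92, 9.45 and 9.26 in LSEC_2h arrays 4 to 7 and at 6.97, 7.4, 7.9 and 7.99 in LSEC_42h arrays 1, 2, 3 and 12. The 3 liver groups were fully separate, and LSEC_42h array 1 lay below the median of all probe sets. Relative to LSEC_0h, Jam2 fell 2.53-fold in LSEC_2h and 8.42-fold in LSEC_42h (limma adjusted p = 1.85e-05 and 2.56e-09), and LSEC_42h was 3.33-fold below LSEC_2h (limma adjusted p = 2.33e-06). Against LMEC_0h, Jam2 was 1.59-fold lower in LSEC_2h, where 1 array overlapped the lung range, and 5.29-fold lower in LSEC_42h (limma adjusted p = 0.00794 and 2.99e-08). Over the 27 alternatives the difference of LSEC_42h from LSEC_0h stayed between -3.21 and -2.88.

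Tjp1 encodes a zonula occludens protein, the cytoplasmic scaffold that couples tight junction membrane proteins to actin. Its probe set read 8.69, 8.71, 8.62, 8.7 and 8.57 in LMEC_0h arrays 18 to 22, against 9.14, 9.4, 8.92, 8.91 and 9.35 in LSEC_0h arrays 13 to 17. The lung arrays lay close together and all below the liver arrays. Tjp1 was 1.4-fold lower in LMEC_0h, with means of 8.66 ± 0.06 in LMEC_0h against 9.15 ± 0.23 in LSEC_0h (SD, n = 5 each) and a limma adjusted p of 0.00154. Within LSEC_0h, arrays 14 and 17 were high for Tjp1 and had the lowest hepatocyte marker means, 8.31 and 8.29, whereas arrays 15 and 16 were low and had the highest, 9.7 and 9.42. Arrays 14 and 17 also had the lowest macrophage marker means, 8.93 and 8.22, against 9.7, 10.64 and 9.12 in arrays 13, 15 and 16. The part of hepatocyte or macrophage RNA in the organ difference was not tested.

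In LSEC_2h Tjp1 was at 8.36, 8.37, 8.36 and 8.53 in arrays 4 to 7, and in LSEC_42h at 8.61, 8.56, 9.03 and 9.02 in arrays 1, 2, 3 and 12. The 2 h arrays lay below those of every other group, and 42 h arrays 3 and 12 fell within the LSEC_0h range. Tjp1 fell 1.67-fold in LSEC_2h relative to LSEC_0h (limma adjusted p = 2.48e-05). At 42 h the difference from LSEC_0h was -0.34 (limma adjusted p = 0.0241), and this call was lost in the fit of 2 groups (0.0681) and without LSEC_0h array 14 (-0.27), LSEC_0h array 17 (-0.29), LSEC_42h array 1 (-0.27) or LSEC_42h array 2 (-0.26), with adjusted p between 0.0117 and 0.0965 over the 27 alternatives. LSEC_42h was 1.32-fold above LSEC_2h (limma adjusted p = 0.00833), but after quantile normalization that difference was 0.17 and was not called (adjusted p = 0.263, the top of a range that began at 0.00106). Against LMEC_0h neither culture was called for Tjp1, with differences of -0.25 for LSEC_2h and 0.15 for LSEC_42h (limma adjusted p = 0.0628 and 0.286). The first of these was called in the fit of 2 groups (adjusted p = 0.0216) and without LSEC_2h array 7 (adjusted p = 0.0498), in a range of 0.0216 to 0.656, and the second had a 95% interval of -0.10 to 0.40.

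Gja4 encodes a connexin of endothelial gap junctions that is typical of arteries. Its group means had the widest range of the 5 genes, so the sequence before its gene is shown. The 250 bases that precede its annotated start, on the minus strand of rat chromosome 5 (GRCr8, chr5:144920325-144920574, from RefSeq), are printed with each GGAA or its reverse complement TTCC, the core of ETS factor sites, in capitals.
Gja4: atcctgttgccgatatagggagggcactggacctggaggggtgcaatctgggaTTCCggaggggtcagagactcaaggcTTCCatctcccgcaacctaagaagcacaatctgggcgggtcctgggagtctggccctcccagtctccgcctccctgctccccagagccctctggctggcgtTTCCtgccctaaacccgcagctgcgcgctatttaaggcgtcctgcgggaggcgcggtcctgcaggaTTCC
The window holds 4 such cores, and 93.2% of 33469 RefSeq promoter windows of the rat hold at least 1. Searched on both strands, the SOX core ACAAT and the KLF core CACCC have 1 match each in it, and occur in 30.0% and 49.2% of all windows. The matches overlap one another in 0 places, and a match here is a description of the letters only.

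Gja4 was at 11.33, 10.93, 10.67, 11.3 and 11.25 in LMEC_0h arrays 18 to 22, against 8.99, 9.47, 9.56, 8.99 and 9.68 in LSEC_0h arrays 13 to 17. The lowest lung array stood about 1 log2 unit above the highest liver array. Gja4 averaged 11.1 ± 0.29 in LMEC_0h against 9.34 ± 0.33 in LSEC_0h (SD, n = 5 each) and was 3.38-fold higher in LMEC_0h (limma adjusted p = 6.14e-07). In culture it was at 8.39, 7.88, 8.16 and 7.79 in LSEC_2h arrays 4 to 7 and at 6.59, 6.65, 7.46 and 6.65 in LSEC_42h arrays 1, 2, 3 and 12. No group overlapped another, and 3 of the 4 arrays at 42 h lay below the median of all probe sets. Relative to LSEC_0h, Gja4 fell 2.43-fold in LSEC_2h and 5.66-fold in LSEC_42h (limma adjusted p = 2.31e-05 and 2.72e-08), and LSEC_42h was 2.33-fold below LSEC_2h (limma adjusted p = 8.07e-05). Compared with LMEC_0h it was 8.23-fold lower in LSEC_2h and 19.2-fold lower in LSEC_42h (limma adjusted p = 1.03e-09 and 1.07e-11).

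**Figure D3:**
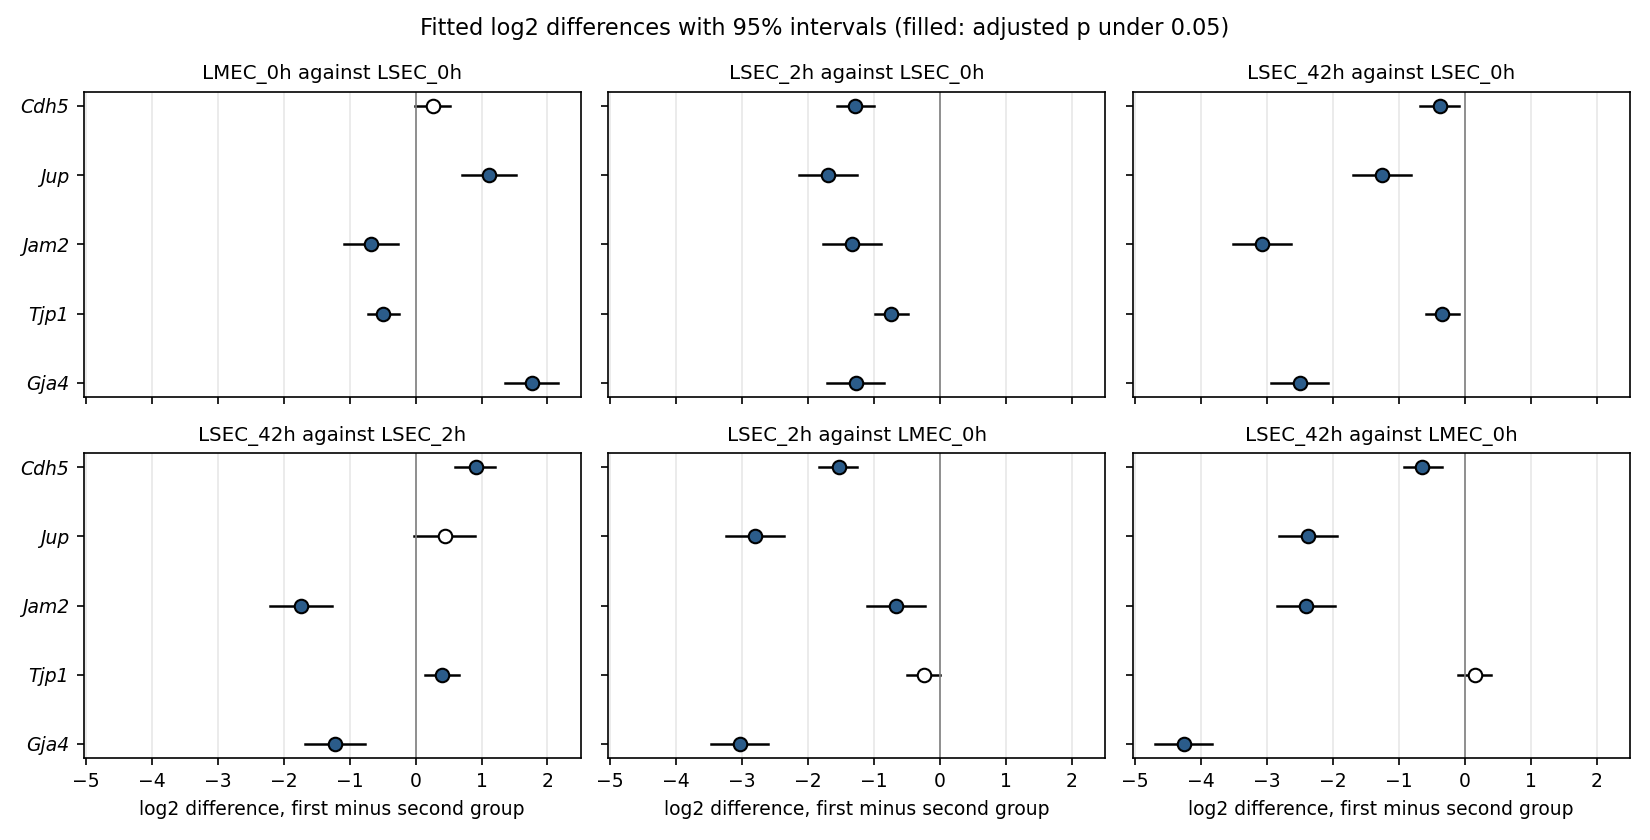
Log2 differences of the 5 genes with 95% intervals from the limma fit, 1 panel per comparison. At 2 h all intervals against LSEC_0h lie below 0, while at 42 h they range between Jam2 at -3.07 and Tjp1 at -0.34.

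The order of the 4 groups differed between the genes. Gja4 ran LMEC_0h, LSEC_0h, LSEC_2h, LSEC_42h from high to low, with every neighbouring pair called. Jam2 was highest in LSEC_0h, then in LMEC_0h, LSEC_2h and LSEC_42h. Jup was highest in LMEC_0h and then in LSEC_0h, with the cultures below and not told apart. Cdh5 was lowest at 2 h, and its fresh groups at the top were not told apart. Tjp1 was highest in LSEC_0h, and the neighbours LSEC_42h and LMEC_0h, and LMEC_0h and LSEC_2h, were not called. As a description, the root mean square difference between the centred profiles of 2 of these genes over the 18 arrays was smallest for Cdh5 with Tjp1, 0.49, and largest for Gja4 with Tjp1, 1.61.

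By the same measure, the nearest profiles among all genes tested were outside the junction lists used here. They were Gnai2, Map3k11 and Tagln2 for Cdh5, at 0.17, 0.17 and 0.19, and Adgre5, Nipal2 and Ucp2 for Jup, at 0.27, 0.29 and 0.33. For Jam2 they were Dpp4, Txnip and RT1-S3, at 0.35, 0.38 and 0.4. For Tjp1 they were Mtmr3, Map3k3 and Mff, each at 0.12, and for Gja4 they were Ltbp4, Pltp and Tmcc2, at 0.43, 0.44 and 0.45. The course of Dpp4 shows the likeness to Jam2 in levels, with group means of 10.25 in LMEC_0h, 11.65 in LSEC_0h, 10.13 in LSEC_2h and 8.07 in LSEC_42h.

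A wider set of 65 measured junction genes was set beside these 5. In LMEC_0h 27 were called higher and 16 lower than in LSEC_0h, with a median difference of 0.11 against -0.04 over all genes. Of all genes, 19.8% were higher and 27.7% lower there. Both means lay under the median of all probe sets for 7 of the 27 and 6 of the 16. In LSEC_2h 23 were called higher and 17 lower than in LSEC_0h, with a median of 0.12 against 0.08 over all genes, where 41.4% of all genes were higher and 32.7% lower. Of the 23, 12 had both means under the median of all probe sets, and with dim genes left out the balance turned, with 11 of 43 genes higher and 16 lower. In LSEC_42h 10 were higher and 23 lower than in LSEC_0h, with a median of -0.01 against 0.05 over all genes. Of all genes, 50.6% were called there, 29.7% higher and 20.8% lower. Both means lay under the median of all probe sets for 2 of the 10 and 5 of the 23.

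Among 12 other adherens junction genes, 6 fell and 1 rose in LSEC_2h relative to LSEC_0h, against 32.7% of all genes lower and 41.4% higher. In LSEC_42h 9 fell and none rose relative to LSEC_0h, against 20.8% of all genes lower and 29.7% higher. With dim genes left out, 6 of 11 fell and 1 rose in LSEC_2h, against 3262 lower and 1846 higher of 6803 genes. In LSEC_42h 9 of these 11 fell and 1 rose, against 1927 lower and 2426 higher. The catenin Ctnnd1, which binds the cadherin tail near the membrane, averaged 9.04 ± 0.11 in LSEC_0h (SD, n = 5), 8.02 ± 0.12 in LSEC_2h and 8.01 ± 0.15 in LSEC_42h (SD, n = 4 each). It was lower than in LSEC_0h at both times (limma adjusted p = 5.21e-08 and 9.98e-08). Ctnnb1, the beta-catenin that occupies the same site on cadherins as plakoglobin, fell 2.11-fold in LSEC_2h (limma adjusted p = 1.91e-05). Nectin2, an immunoglobulin-type adhesion molecule, averaged 8.05 ± 0.16 in LSEC_2h and 9.6 ± 0.16 in LSEC_0h (SD, n = 4 and 5), and was 1.97-fold higher in LSEC_42h than in LSEC_2h (limma adjusted p = 7.06e-05). Ptprb, a phosphatase that acts on the endothelial cadherin complex, averaged 11.11 in both LSEC_2h and LSEC_0h. It then fell 1.83-fold in LSEC_42h relative to LSEC_0h (limma adjusted p = 0.000137). Between the organs 4 of the 12 were higher and 4 lower in LMEC_0h, against 19.8% and 27.7% of all genes. Nectin3 was at 8.92 in LMEC_0h and 7.24 in LSEC_0h, and Nectin2 at 8.05 in LMEC_0h and 9.6 in LSEC_0h. Cdh13, an anchored cadherin without a cytoplasmic tail, averaged 7.83 in LMEC_0h and, at 6.06, lay in the absent range in LSEC_0h.

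Of 19 other tight junction genes, 11 were called higher and 3 lower in LMEC_0h than in LSEC_0h, against 19.8% and 27.7% of all genes. Both means lay under the median of all probe sets for 4 of the 11 and 1 of the 3. Ocln, the tight junction membrane protein occludin, was at 8.01 ± 0.35 in LMEC_0h, against 6.36 ± 0.16 in LSEC_0h (SD, n = 5 each; limma adjusted p = 4.39e-09). Epithelium expresses occludin too, and 9 of 11 epithelial markers were called higher in the same arrays, a part that was not tested. Jam3, the partner of Jam2, was 3.41-fold lower in LMEC_0h (7.15 ± 0.11 in LMEC_0h against 8.92 ± 0.2 in LSEC_0h, SD, n = 5 each, limma adjusted p = 2.51e-07).

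The relatives of Jam2 had courses of their own in culture, described here by their values. F11r, another junctional adhesion molecule, fell 1.95-fold in LSEC_2h relative to LSEC_0h and was 1.97-fold above LSEC_0h in LSEC_42h (limma adjusted p = 5.78e-05 and 9.84e-05), with group means of 10.66 in LSEC_0h, 9.7 in LSEC_2h and 11.64 in LSEC_42h. Jam3 was 1.76-fold higher in LSEC_42h than in LSEC_2h (limma adjusted p = 0.00168), and its difference of LSEC_42h from LSEC_0h, 0.42, was not called (limma adjusted p = 0.0771). Esam, an endothelial adhesion molecule of the same superfamily, averaged 11.76 in LSEC_0h, 12.27 in LSEC_2h and 11.07 in LSEC_42h. It rose 1.42-fold in LSEC_2h and fell 1.61-fold in LSEC_42h relative to LSEC_0h (limma adjusted p = 0.000741 and 8.47e-05). Of the 19 genes, 5 rose and 3 fell in LSEC_2h relative to LSEC_0h, against 41.4% of all genes higher and 32.7% lower. Of the 5, 4 had both means under the median of all probe sets. With dim genes left out, 1 of 11 rose and 3 fell. In LSEC_42h 4 rose and 2 fell relative to LSEC_0h, against 29.7% and 20.8% of all genes, and 2 of the 4 had both means under that median. The difference between the courses of Jam2 and its relatives was not tested.

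Gja1, a connexin found in many cell types, was 2.59-fold higher in LMEC_0h than in LSEC_0h, as Gja4 was, but rose 1.92-fold in LSEC_2h and 2.38-fold in LSEC_42h relative to LSEC_0h (limma adjusted p = 1.41e-06, 8.53e-05 and 8.93e-06). Its group means were 8.35 in LMEC_0h, 6.97 in LSEC_0h, 7.92 in LSEC_2h and 8.22 in LSEC_42h. Gja5, which is typical of arterial endothelium like Gja4, averaged 8.97 ± 0.75 in LMEC_0h against 6.27 ± 0.06 in LSEC_0h (SD, n = 5 each; limma adjusted p = 2.78e-08), the second of these next to the absent range. Gjb2, a connexin of epithelia and hepatocytes, averaged 8.3 ± 0.5 in LSEC_2h and 6.34 ± 0.09 in LSEC_0h (SD, n = 4 and 5), a 3.89-fold rise (limma adjusted p = 1.39e-08), and was at 6.36 in LSEC_42h. Over the 10 other gap junction genes, 7 were called higher and 1 lower in LSEC_2h than in LSEC_0h, against 41.4% and 32.7% of all genes. However, 4 of the 7 and the 1 lower gene had both means under the median of all probe sets. In LSEC_42h 1 was higher and 3 lower than in LSEC_0h, against 29.7% and 20.8% of all genes. All 3 lower genes had both means under that median.

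**Figure D4:**
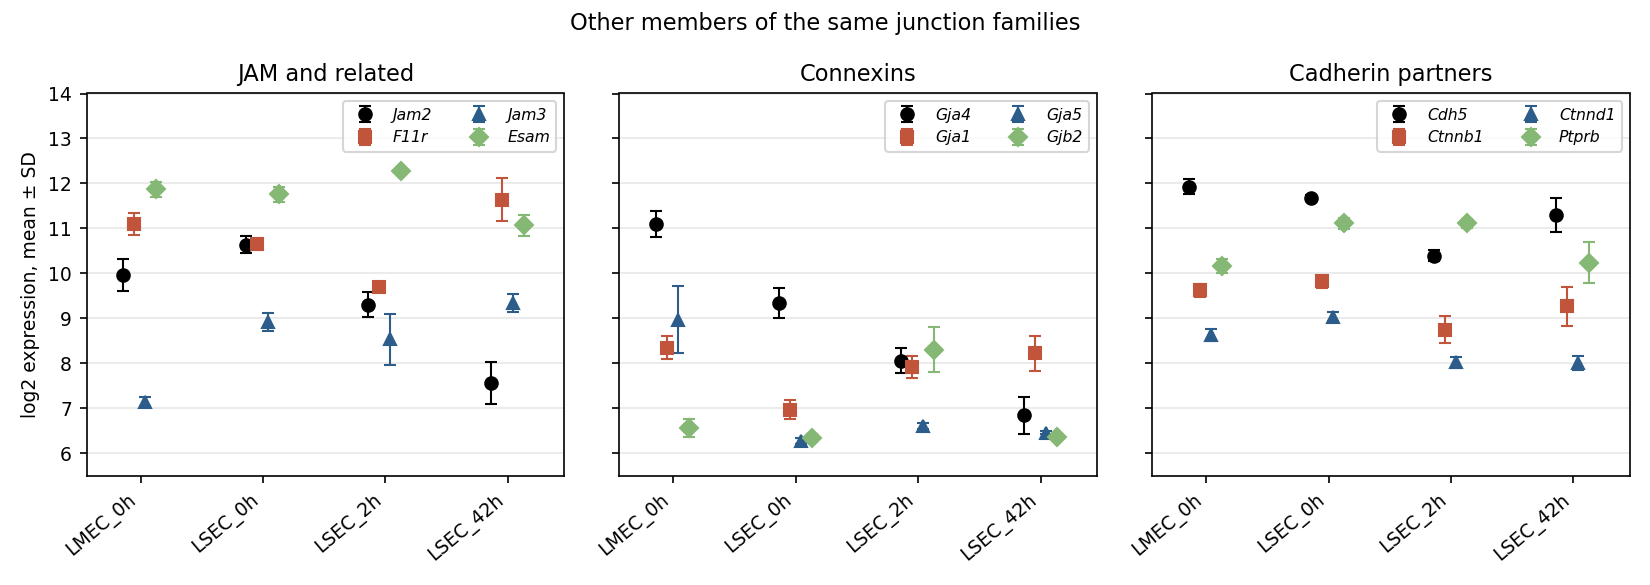
Group means and SD (log2) of Jam2 with F11r, Jam3 and Esam, of Gja4 with Gja1, Gja5 and Gjb2, and of Cdh5 with Ctnnb1, Ctnnd1 and Ptprb. Jam2 and Gja4 descend through culture to 7.56 and 6.84 at 42 h, while F11r reaches 11.64 and Gja1 8.22 there.

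Of 8 other desmosome genes, where plakoglobin also resides, 5 were higher and 2 lower in LMEC_0h than in LSEC_0h, against 19.8% and 27.7% of all genes. Both means lay under the median of all probe sets for 2 of the 5 and 1 of the 2. Dsc2, a desmosomal cadherin, averaged 7.36 ± 0.2 in LMEC_0h and, at 5.72 ± 0.12, was in the absent range in LSEC_0h (SD, n = 5 each; limma adjusted p = 9.64e-10). Perp, a desmosomal membrane protein of epithelia, varied widely in LMEC_0h at 7.9 ± 1.09 and was at 6.16 in LSEC_0h. The mean of the desmosome list was highest in lung array 20, at 7.49, which also had the highest epithelial marker mean, 8.92. The part of epithelial RNA in the organ differences of these desmosome genes was not tested. In LSEC_2h 4 of the 8 were higher and none lower than in LSEC_0h, against 41.4% and 32.7% of all genes. Of the 4, 3 had both means under the median of all probe sets. In LSEC_42h none of the 8 was higher and 3 were lower than in LSEC_0h, against 29.7% and 20.8% of all genes. Among the 3 was Pkp4, a plakophilin relative, at 7.48 ± 0.02 in LSEC_42h and 8.11 ± 0.16 in LSEC_0h (SD, n = 4 and 5, limma adjusted p = 2.09e-06).

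Regulators of the endothelial barrier, 16 in number, moved in both directions. In LSEC_2h 6 rose and 7 fell relative to LSEC_0h, where 41.4% of all genes rose and 32.7% fell. In LSEC_42h 5 rose and 6 fell relative to LSEC_0h, where 29.7% of all genes rose and 20.8% fell. Tek, the angiopoietin receptor that steadies endothelial contacts, had a course like that of Cdh5 in its means, 12.1 in LSEC_0h, 10.47 in LSEC_2h and 11.51 in LSEC_42h. It fell 3.1-fold in LSEC_2h relative to LSEC_0h and was 2.06-fold higher in LSEC_42h than in LSEC_2h (limma adjusted p = 6.14e-09 and 1.97e-06). S1pr1, the sphingosine phosphate receptor that strengthens the barrier, rose 2.51-fold in LSEC_2h and 1.98-fold in LSEC_42h relative to LSEC_0h (limma adjusted p = 1.06e-07 and 6.01e-06). Between the organs 5 of the 16 were higher and 4 lower in LMEC_0h, against 19.8% and 27.7% of all genes. S1pr1 was among the higher, at 11.5 in LMEC_0h and 10.68 in LSEC_0h.

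Most of the general endothelial markers were lower in culture. Of the 9 measured, 6 were called lower and 1 higher in LSEC_2h than in LSEC_0h, against 32.7% of all genes lower and 41.4% higher. In LSEC_42h 7 were lower and 1 higher than in LSEC_0h, against 20.8% of all genes lower and 29.7% higher. All 9 were among the 6803 genes left when dim ones were dropped. Of those 6803, 3262 were lower and 1846 higher in LSEC_2h, and 1927 lower and 2426 higher in LSEC_42h. List means were 10.5 to 10.7 in LSEC_0h, 9.7 to 10.1 in LSEC_2h and 9.26 to 9.95 in LSEC_42h. The part of a changed share of endothelial RNA in the falls of the 5 junction genes was not tested. Between the organs 1 marker was higher and 3 were lower in LMEC_0h, against 19.8% and 27.7% of all genes. List means were 10.15 to 10.64 in LMEC_0h and 10.5 to 10.7 in LSEC_0h.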

How the data were processed

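The authors deposited 1 log2 expression value for each probe set, from biotin-labelled cRNA on 18 Affymetrix rat arrays. The scale was read from the values. How the authors corrected, normalized and summarised the signals is not given in the sources used here, and they were tested unaltered. Of 11484 probe sets 57 were controls, and of the 11427 gene probe sets the 11018 with 1 symbol were tested, 409 having none. A RefSeq gene table of the rat held 10996 of their identifiers and changed 0 symbols.

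A linear model of all arrays, fitted with limma 3.58.1 under R 4.3.3, had a mean per group and an intensity trend. Tests were two-sided, with Benjamini-Hochberg adjustment over all genes and a threshold of 0.05. The fit was tested on simulated data. Array data hold no counts, so the number of arrays limits precision. Alternatives were other scalings, filters, fits, array weights and left-out arrays.

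The 5 genes, the gene lists and the tests were chosen with earlier results of these data known. Besides the 5 genes, the rule named, for each junction list and comparison, up to 3 called genes with the largest rise and 3 with the largest fall with a higher group mean over the array-wide median, and the 3 nearest profiles of each of the 5. Jam3 against LSEC_0h at 42 h and the Gjb2 level at 42 h were added after their values were seen. Of the 5 promoter windows 4 matched by symbol, and 3 of these start inside the annotated gene and were not printed.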

Additional observations from a re-analysis of the deposited data

Results flagged for a closer look

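In 20 groups of arrays, 4 groups for each of the 5 genes, 2 held an array that stood far from the others by Dixon's test, and chance flags about 1 in 20. Gja4 was highest in LSEC_42h array 3, at 7.46, while the other 42 h arrays lay between 6.59 and 6.65. Tjp1 was highest in LSEC_2h array 7, at 8.53, with the other 2 h arrays at 8.36 and 8.37.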

How the results depend on the processing

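Of 840 values of the 5 genes (30 results under 28 alternatives), 810 kept their direction and side of the threshold, 23 lost a call, 7 gained one and none reversed. In the fit of 2 groups Cdh5 between the organs (0.26) and Tjp1 in LSEC_2h against LMEC_0h (-0.25) gained a call, and Cdh5 (-0.38) and Tjp1 (-0.34) in LSEC_42h against LSEC_0h lost theirs. Quantile normalization lost Cdh5 there (-0.34) and Tjp1 in LSEC_42h against LSEC_2h (0.17). Array weights lost Cdh5 in LSEC_42h against LSEC_0h (-0.22) and gained Jup in LSEC_42h against LSEC_2h (0.76). Without LMEC_0h array 20, LSEC_2h array 6 and LSEC_0h array 15, Jam2 between the organs was -0.56 and lost. The causes were not tested. Tested against a 1.5-fold change, calls were lost by Jam2 (-0.67), Jup (1.11) and Tjp1 (-0.49) between the organs, Tjp1 in LSEC_2h against LSEC_0h (-0.74), Cdh5 (-0.38) and Tjp1 (-0.34) in LSEC_42h against LSEC_0h, Cdh5 (0.91) and Tjp1 (0.4) in LSEC_42h against LSEC_2h, Jam2 in LSEC_2h against LMEC_0h (-0.67) and Cdh5 in LSEC_42h against LMEC_0h (-0.64). That test called 1088 genes between the organs, 1692 in LSEC_2h and 1035 in LSEC_42h against LSEC_0h, 1769 in LSEC_42h against LSEC_2h, and 1615 in LSEC_2h and 1523 in LSEC_42h against LMEC_0h, where the reported fit called 5235, 8158, 5570, 7939, 8116 and 6814. Of the 65 other junction genes it called 15, 8, 5, 6, 18 and 16 in the same order, against 43, 40, 33, 43, 51 and 43. With dim genes left out, fewer genes were tested, and 5108, 4963 and 4942 were called in LSEC_2h against LSEC_0h, LSEC_42h against LSEC_2h and LSEC_2h against LMEC_0h, with 36.1%, 64.8% and 40.5% of calls higher, where the reported fit had 55.9%, 46.0% and 58.4%. Leaving out 1 array at a time gave 0.2 to 0.31 for Cdh5 between the organs, -0.5 to -0.23 for Cdh5 and -0.41 to -0.26 for Tjp1 in LSEC_42h against LSEC_0h, 0.22 to 0.66 for Jup in LSEC_42h against LSEC_2h and -0.3 to -0.24 for Tjp1 in LSEC_2h against LMEC_0h. Of 121 results of named list genes, 13 lost a call in at least 1 alternative that tests for any change and none reversed. Signal near the absent controls limits the fold of dim genes. No paired analysis was possible because the groups share no replicate number.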
